A study of Mus with 9 samples.

Results

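The RUNX factors, their partner Cbfb and the ETO family are 7 mouse genes chosen by name: Runx1, Runx2, Runx3, Cbfb, Runx1t1, Cbfa2t2 and Cbfa2t3. All 7 were among the 54532 genes of the deposited count table, and all 7 passed the filter on low counts that left 15660 genes for testing. The study asked how cyclin D2, encoded by CCND2, acts together with AML1-ETO, the leukaemia fusion of RUNX1 (AML1) and RUNX1T1 (ETO). RNA of bone marrow cells was sequenced from 3 groups of 3 libraries each. Donor cells were fetal liver cells of embryonic day 12.5 from mice with a conditional AML1-ETO knock-in in which the fusion carries an mCherry tag, so every group holds the fusion, the Vec controls too. They were infected with the retroviral vector MSCV-IRES-EGFP, and 100000 mCherry+ GFP+ cells were injected with supportive cells into lethally irradiated C57BL/6 mice. The CCND2mut group received cells with a vector carrying CCND2 with the Thr280Ala change at residue 280, the CCND2wt group cells with wild-type CCND2, and the Vec group cells with the empty vector. The labels give neither the ages of the animals nor the Cre driver of the conditional allele. They do not say that the marrow was sorted before RNA extraction, so supportive and host cells may be part of each library. Whether each library came from its own animal is not stated either, so all p-values below measure the spread between these libraries, which may be technical.

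RUNX proteins bind DNA through the Runt domain as the alpha subunit of core binding factor, and CBFB is the non-DNA-binding beta subunit that strengthens that binding. RUNX1 is needed for the emergence of definitive blood stem cells and for megakaryocyte and lymphocyte maturation, RUNX2 is best known as the bone-forming factor, and RUNX3 acts in T cells, natural killer cells and neurons. The ETO proteins (RUNX1T1, CBFA2T2 and CBFA2T3) do not bind specific DNA sequences themselves: they are corepressors brought to DNA by other factors, and they recruit NCOR, SIN3A and histone deacetylases. AML1-ETO joins the Runt domain of RUNX1 to nearly all of RUNX1T1.

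In the mm10 coordinates of the table, Runx1 (ENSMUSG00000022952) lies on the minus strand at chr16:92601466-92826149, Runx2 (ENSMUSG00000039153) on the minus strand at chr17:44495987-44814797, and Runx3 (ENSMUSG00000070691) on the plus strand at chr4:135120652-135177990. Cbfb (ENSMUSG00000031885) lies on the plus strand at chr8:105170674-105217989. Runx1t1 (ENSMUSG00000006586) lies on the plus strand at chr4:13743436-13893649, Cbfa2t2 (ENSMUSG00000038533) on the plus strand at chr2:154436481-154539356, and Cbfa2t3 (ENSMUSG00000006362) on the minus strand at chr8:122625141-122699109. Each value is for a whole gene, over all its exons. A read counted at Runx1 or Runx1t1 can come from the normal transcript or from the fusion, and in these counts the 2 sources cannot be told apart. The library kit named in the labels does not mark strand, so reads from exon bases that 2 genes share cannot be told apart either. Overlap is given here by gene span, and whether exons overlap was not tested. The counts below were assigned to the overlapping gene, and the percentages only set their size beside that of the gene it overlaps. The largest overlapping count was that of Supt3, a protein-coding gene on the strand opposite Runx2, with 2991 counts over the 9 libraries, equal in number to 10.96% of the Runx2 counts. Gm15899, a pseudogene within the span of Cbfa2t3, had 1.93% of the Cbfa2t3 counts, and the antisense gene Gm26626 had 0.675% of the Runx1 counts. No listed gene overlapped Runx1t1 or Cbfa2t2.

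Each library held between 15043755 and 17593634 counts. Levels are given as CPM, that is, counts scaled to a common library size with TMM normalisation. Ccnd2, the gene the vectors carry, was at 12.6, 58.1 and 51.0 CPM in the libraries labelled CCND2mut 1, 2 and 3, at 7.29, 9.28 and 11.1 CPM in CCND2wt 2, 3 and 4 as labelled, and at 76.1, 78.9 and 86.0 CPM in Vec 1, 2 and 4 as labelled. The level therefore goes against the labels, and whether the vector's reads were counted at this gene is not given in the sources used here, so each direction below is between libraries labelled that way. The CCND2wt libraries stood closer to one another than those of the other groups, with a chi-square per gene of 6.999 to 17.7 between pairs, against 72.9 to 148 within CCND2mut and 53.3 to 117 within Vec. Sex-linked genes also differed, both between the groups and within CCND2mut and Vec. The 4 Y-linked genes summed to 59.8, 0 and 0 CPM in CCND2mut 1, 2 and 3, and to 291, 523 and 148 CPM in Vec 1, 2 and 4. In CCND2wt libraries they summed to 1.58 to 1.65 CPM. Xist was at 4.30, 11.8 and 4.91 CPM in CCND2mut 1, 2 and 3, and at 169, 10.6 and 878 CPM in Vec 1, 2 and 4. In CCND2wt libraries it was at 2108 to 2302 CPM. The part of these differences in the results was not tested. Ptprc, the pan-leukocyte marker CD45, was detected in every library at 191 to 492 CPM.

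In CCND2mut against Vec libraries, 4 of the 7 genes fell and 0 rose (edgeR's quasi-likelihood test, Benjamini-Hochberg adjustment over all 15660 genes, threshold 0.05). The 4 were Runx1, Runx1t1, Cbfa2t2 and Cbfa2t3, that is, 1 RUNX factor and all 3 ETO family genes. Of all tested genes, 51.8% passed that comparison, 26.9% lower and 24.9% higher, so the share of the 7 that passed was close to that of all genes, while all that passed were lower. Unadjusted p-values, DESeq2 and limma-voom also gave 0 higher and 4 lower. The same 4 genes had groups that did not overlap, where 56.6% of all tested genes did not, 29.2% with CCND2mut lower and 27.4% with CCND2mut higher.

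In CCND2wt against Vec libraries, 3 of the 7 fell (Runx2, Runx1t1 and Cbfa2t3) and 0 rose, where 18.8% of all tested genes passed, 9.05% lower and 9.71% higher. At an unadjusted p under 0.05 the count was 0 higher and 5 lower, and DESeq2 and limma-voom each gave 0 higher and 3 lower. Groups did not overlap for those 3 genes, all lower, and for Cbfb, which was higher, where 48.3% of all tested genes did not overlap, 23.7% lower and 24.6% higher. In CCND2mut against CCND2wt libraries, 4 of the 7 were lower (Cbfb, Runx1t1, Cbfa2t2 and Cbfa2t3) and Runx2 was higher, where 47.0% of all tested genes passed, 23.8% lower and 23.2% higher. There the groups did not overlap for 6 of the 7, 5 lower and 1 higher, where 63.1% of all tested genes did not, 32.2% lower and 30.9% higher. The CCND2wt against Vec count was 1 without CCND2wt 2, 3 or 4, Vec 2 or Vec 4, and 5 without Vec 1. The CCND2mut against CCND2wt count was 1 without CCND2wt 2 or 3, 2 without CCND2wt 4 or CCND2mut 3, and 3 without CCND2mut 1, CCND2mut 2 or Vec 4. With the 3 CCND2wt libraries summed to 1 sample, which assumes that this sample varies like those of the other groups, the count was 0 in CCND2wt against Vec, and Cbfa2t3 was the 1 gene still called in CCND2mut against CCND2wt. The median log2 fold change over the 7 genes was -0.64 in CCND2mut against Vec, -0.53 in CCND2wt against Vec and -0.42 in CCND2mut against CCND2wt, beside medians of -0.03, -0.04 and 0.02 over all tested genes. Both comparisons against Vec use the same Vec libraries. The number of all tested genes called also changed when libraries were left out or summed, so the shares above hold for the main fit only.

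**Figure D1:**
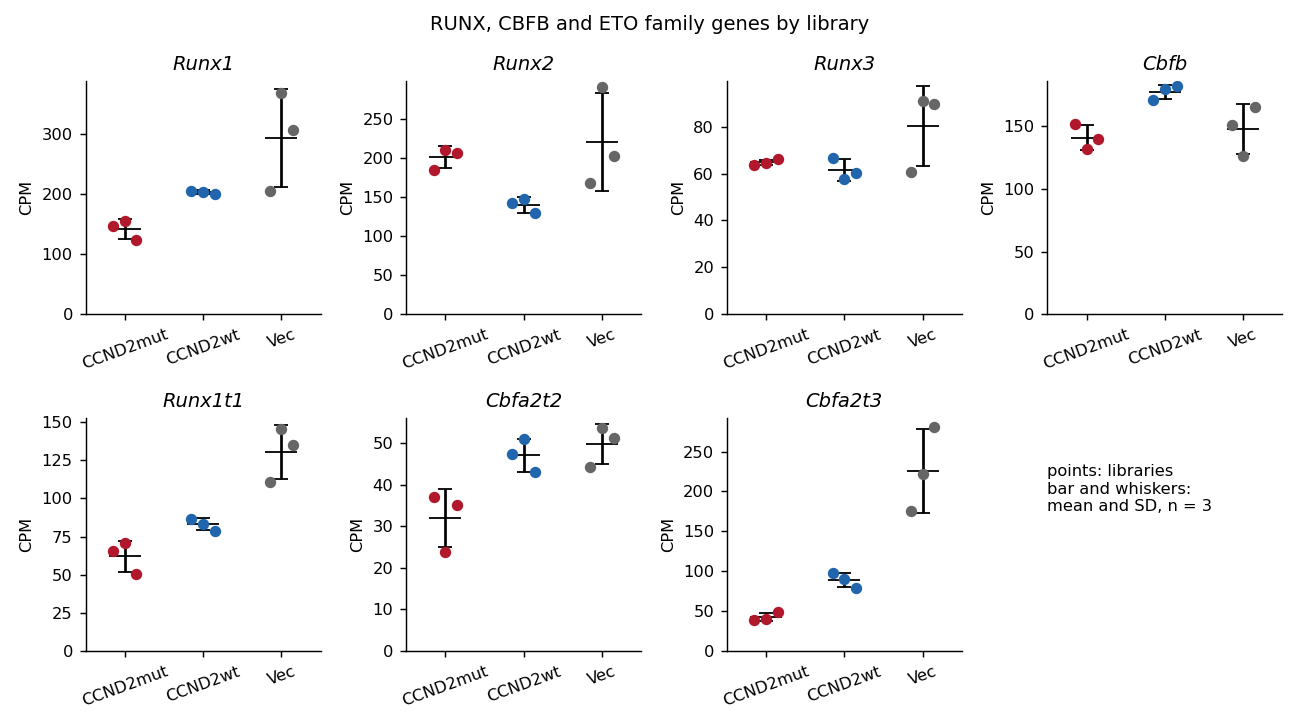
Level of each of the 7 genes in CPM (vertical axes, linear from 0) in every library, with groups from left to right CCND2mut, CCND2wt and Vec; points are libraries, and bars with whiskers are group means and SDs. Cbfa2t3 had no overlap between any of its groups, with means of 42.7, 89.3 and 226 CPM, while Cbfb had its highest values in CCND2wt libraries.

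Runx1, the alpha subunit that forms the DNA-binding end of the fusion, was at 147, 155 and 123 CPM in CCND2mut 1, 2 and 3, at 206, 204 and 201 CPM in CCND2wt 2, 3 and 4, and at 205, 368 and 307 CPM in Vec 1, 2 and 4. All CCND2mut libraries lay below all others, and CCND2wt libraries overlapped Vec libraries only through Vec 1. Group means were 142 ± 16.8 CPM in CCND2mut, 204 ± 2.71 CPM in CCND2wt and 294 ± 82.3 CPM in Vec (SD, n = 3 each). Runx1 fell in CCND2mut against Vec, with a log2 fold change of -1.05 (SE 0.199, adjusted p = 0.00266), a 2.07-fold lower level. In CCND2wt against Vec the log2 fold change was -0.53 (95% interval -0.98 to -0.08), which did not pass the test (adjusted p = 0.0938). Without Vec 1 it was -0.71 and passed (adjusted p = 0.0117), while without Vec 2 it was -0.31 (adjusted p = 0.284). In CCND2mut against CCND2wt the log2 fold change was -0.52 (95% interval -0.97 to -0.07, adjusted p = 0.0577), just outside the threshold, although the groups did not overlap. It passed without Vec 1 (adjusted p = 0.00802) or Vec 2 (adjusted p = 0.0267), with DESeq2 (adjusted p = 0.0376), and in a fit of only those 2 groups (adjusted p = 0.00944). It also passed with no filter on low counts (adjusted p = 0.0348) and with a stricter one (adjusted p = 0.04997). In 13 of the 20 alternative settings the Runx1 difference between CCND2mut and CCND2wt did not pass. As in any bulk sample, fewer cells that express a gene and less of its RNA per cell cannot be told apart in these values.

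Runx2, the osteoblast factor that also is expressed in early blood cells, was at 185, 211 and 207 CPM in CCND2mut 1, 2 and 3, at 143, 148 and 129 CPM in CCND2wt 2, 3 and 4, and at 169, 291 and 203 CPM in Vec 1, 2 and 4. The CCND2wt libraries lay below all others, and the CCND2mut libraries lay inside the range of the Vec libraries. Runx2 fell in CCND2wt against Vec (log2 fold change -0.66, SE 0.187, adjusted p = 0.0426) and was higher in CCND2mut than in CCND2wt (0.52, SE 0.187, adjusted p = 0.0475). In CCND2mut against Vec the log2 fold change was -0.14 with a 95% interval of -0.56 to 0.29, and the difference did not pass (adjusted p = 0.565). Both calls were close to the threshold. The CCND2wt against Vec call was lost without CCND2wt 2, 3 or 4 (adjusted p = 0.122, 0.102 and 0.149), without Vec 2 or Vec 4 (0.0842 and 0.0765) and without CCND2mut 2 or 3 (0.0537 and 0.0571), and without Vec 2 the log2 fold change was -0.39. The CCND2mut against CCND2wt call was lost without CCND2mut 1, 2 or 3 (adjusted p = 0.0536, 0.125 and 0.105), without CCND2wt 2, 3 or 4 (0.108, 0.0893 and 0.141) and without Vec 4 (0.0733). It was also lost with RLE scaling (adjusted p = 0.0541), with no filter on low counts (0.062) and with a stricter one (0.0545). Markers of bone and stroma, a list of 10 genes, summed to 35.4 to 37.8 CPM in CCND2mut, 19.8 to 22.8 CPM in CCND2wt and 72.3 to 91.8 CPM in Vec libraries. Most of that sum was Pdgfrb, a receptor of stromal cells, at 22.6 ± 5.24 CPM in CCND2mut, 20.1 ± 1.89 CPM in CCND2wt and 71.7 ± 4.88 CPM in Vec, and Col1a1, a collagen chain, was at 12.4 ± 7.98 CPM in CCND2mut, 0.235 ± 0.0749 CPM in CCND2wt and 1.31 ± 1.90 CPM in Vec. The bone markers Sp7, Ibsp, Bglap and Alpl were at or near 0 in every group and were not tested.

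Runx3, the family member best known from T and natural killer cells, was at 63.7, 64.7 and 66.0 CPM in CCND2mut 1, 2 and 3, at 66.6, 57.5 and 60.2 CPM in CCND2wt 2, 3 and 4, and at 60.6, 90.7 and 89.5 CPM in Vec 1, 2 and 4. Vec 2 and Vec 4 lay above all other libraries, while Vec 1 lay among the CCND2 libraries. Vec 1 also stood apart from Vec 2 and Vec 4 in summed cell markers, with 18387 CPM of erythroid markers in Vec 1, against 954 and 4604 CPM in Vec 2 and Vec 4, and 15578 CPM of neutrophil markers, against 1601 and 1481 CPM. Its monocyte markers summed to 1620 CPM, against 139.9 and 152 CPM in Vec 2 and Vec 4, and its B cell markers to 352 CPM, against 52.1 and 79.0 CPM. The part of this in the Runx1 and Runx3 values was not tested. No comparison passed: the log2 fold change was -0.31 in CCND2mut against Vec (95% interval -0.66 to 0.05, adjusted p = 0.127), -0.39 in CCND2wt against Vec (-0.74 to -0.03, adjusted p = 0.116) and 0.08 in CCND2mut against CCND2wt (-0.28 to 0.43, adjusted p = 0.715). Without Vec 1, Runx3 was called lower in CCND2mut against Vec (-0.48, adjusted p = 0.0066) and in CCND2wt against Vec (-0.53, adjusted p = 0.0126). The 11 markers of T and natural killer cells summed to 35.7 to 64.1 CPM in CCND2mut and 34.1 to 44.7 CPM in CCND2wt libraries. In Vec libraries they summed to 72.0 to 144 CPM. The largest part in CCND2mut was Nkg7, with means of 44.9, 22.2 and 28.3 CPM in CCND2mut, CCND2wt and Vec. Prf1 went the other way, with means of 0.448, 14.9 and 56.1 CPM in the same order. Of the 5 tested markers, 1 was higher and 3 lower in CCND2mut against Vec (24.9% and 26.9% of all tested genes). In CCND2mut against CCND2wt, 2 were higher and 3 lower (23.2% and 23.8%), and in CCND2wt against Vec, 0 were higher and 2 lower (9.71% and 9.05%). The part of these markers in the Runx3 values was not tested.

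Cbfb, the shared beta subunit, was at 152, 132 and 139.9 CPM in CCND2mut 1, 2 and 3, at 171, 179.7 and 182 CPM in CCND2wt 2, 3 and 4, and at 151, 126 and 166 CPM in Vec 1, 2 and 4. The CCND2wt libraries lay above all others, and the CCND2mut and Vec ranges overlapped. Cbfb was lower in CCND2mut than in CCND2wt, with a log2 fold change of -0.33 (SE 0.12, adjusted p = 0.0483), the smallest of the called differences among the 7 genes. That call was lost without CCND2mut 2 or 3 (adjusted p = 0.0822 and 0.104) and without CCND2wt 2, 3 or 4 (0.0933, 0.122 and 0.1305), and with no filter on low counts (0.0626). In CCND2wt against Vec the log2 fold change of 0.27 (95% interval -0.01 to 0.54) did not pass (adjusted p = 0.149), and in CCND2mut against Vec it was -0.07 (-0.34 to 0.21, adjusted p = 0.67). Changes beyond 0.34 on the log2 scale in either direction therefore lay outside the interval for CCND2mut against Vec.

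Runx1t1, which encodes ETO and forms the other end of the fusion, was at 65.3, 70.4 and 50.8 CPM in CCND2mut 1, 2 and 3, at 86.7, 83.4 and 78.8 CPM in CCND2wt 2, 3 and 4, and at 111, 145 and 135 CPM in Vec 1, 2 and 4. The groups did not overlap, with CCND2mut lowest and Vec highest. Means were 62.2 ± 10.2 CPM in CCND2mut, 82.96 ± 3.93 CPM in CCND2wt and 130.3 ± 17.7 CPM in Vec (SD, n = 3 each). Runx1t1 fell in CCND2mut against Vec (log2 fold change -1.07, SE 0.15, adjusted p = 0.000593) and in CCND2wt against Vec (-0.65, SE 0.149, adjusted p = 0.0193), and it was lower in CCND2mut than in CCND2wt (-0.42, SE 0.149, adjusted p = 0.0471). The first call held whichever library was left out. The second was lost without CCND2wt 2, 3 or 4 (adjusted p = 0.0637, 0.0692 and 0.085) and without Vec 2 or 4 (0.0593 and 0.0605). The last was lost without CCND2mut 1 or 3 (0.0611 and 0.1303), CCND2wt 2, 3 or 4 (0.133, 0.1095 and 0.0823) or Vec 4 (0.0553).

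Cbfa2t2, the ETO family corepressor MTGR1, was at 37.0, 23.9 and 35.01 CPM in CCND2mut 1, 2 and 3, at 47.3, 51.0 and 43.0 CPM in CCND2wt 2, 3 and 4, and at 44.3, 53.6 and 51.3 CPM in Vec 1, 2 and 4. The CCND2mut libraries lay below all others, and the CCND2wt and Vec ranges overlapped. Cbfa2t2 fell in CCND2mut against Vec (log2 fold change -0.64, SE 0.173, adjusted p = 0.0143) and also lay lower there than in CCND2wt (-0.56, SE 0.173, adjusted p = 0.0269). The call against CCND2wt was lost without CCND2wt 2 or 3 (adjusted p = 0.0729 and 0.0914). In CCND2wt against Vec the log2 fold change was -0.08 with a 95% interval of -0.47 to 0.31 (adjusted p = 0.787).

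Cbfa2t3, the ETO family corepressor MTG16 (ETO2), which is part of the TAL1, LMO2 and LDB1 complex of stem and erythroid cells, differed most among the 7 genes. It was at 39.0, 40.4 and 48.8 CPM in CCND2mut 1, 2 and 3, at 97.6, 90.8 and 79.6 CPM in CCND2wt 2, 3 and 4, and at 175, 222 and 280.3 CPM in Vec 1, 2 and 4. The 3 groups were well apart, and the lowest Vec library lay above the highest CCND2wt library. Cbfa2t3 fell in CCND2mut against Vec by 2.40 on the log2 scale (SE 0.188, adjusted p = 4.41e-05), a 5.28-fold lower level. It fell in CCND2wt against Vec by 1.34 (SE 0.181, adjusted p = 0.00276), a 2.53-fold lower level. CCND2mut libraries held 2.09-fold less than CCND2wt libraries (log2 fold change -1.06, SE 0.181, adjusted p = 0.00164). These calls held whichever library was left out. With the CCND2wt libraries summed, the CCND2wt against Vec call was lost (adjusted p = 0.156).

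**Figure D2:**
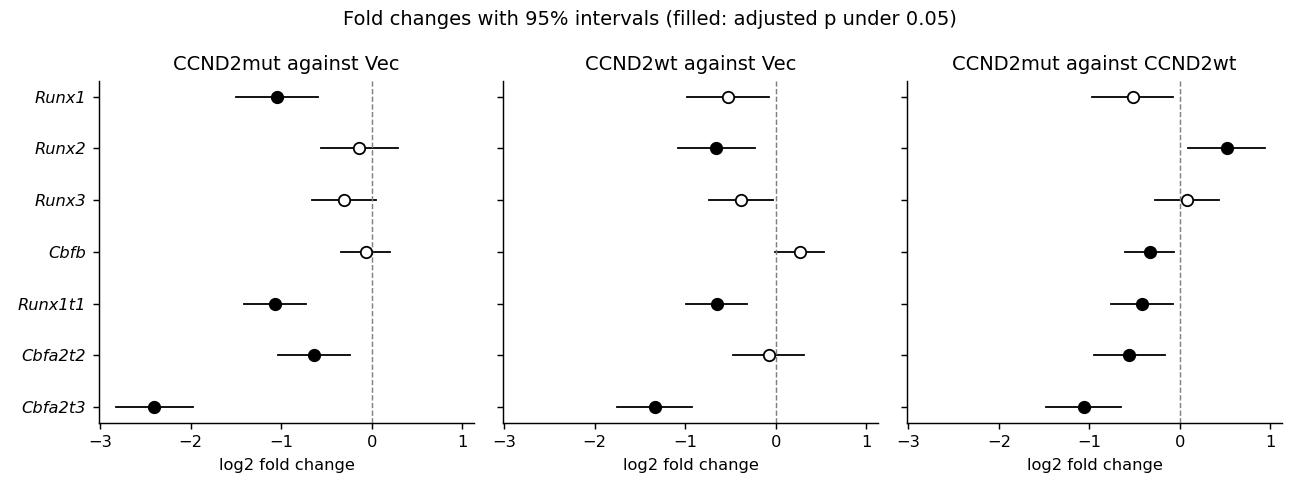
Log2 fold change of each of the 7 genes (horizontal axis) in the 3 comparisons, with 95% intervals from edgeR as lines and filled points for an adjusted p under 0.05. The intervals are not adjusted for the number of genes, so an interval can leave out 0 where the point is open. Those of Runx1, Runx1t1 and Cbfa2t3 lay below 0 in every comparison. That of Cbfa2t3 ran from -2.83 to -1.97 in CCND2mut against Vec, while the interval of Cbfb in that comparison spanned 0.

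Markers of stem and progenitor cells and of erythroid cells and megakaryocytes, in which Cbfa2t3 and Runx1 are known to act, also moved between the groups. Of 10 stem and progenitor markers, 7 fell in CCND2mut against Vec, 2 fell in CCND2wt against Vec, and 7 were lower in CCND2mut than in CCND2wt, where 26.9%, 9.05% and 23.8% of all tested genes were lower in these comparisons. The 2 that fell in CCND2wt against Vec were Mecom, with means of 0.0542 CPM in CCND2wt and 5.66 CPM in Vec, and Flt3, with 31.2 CPM in CCND2wt and 97.4 CPM in Vec. The list's summed level was 509 to 1485 CPM in CCND2mut, 3295 to 3322 CPM in CCND2wt and 2162 to 2910 CPM in Vec libraries. Mecom was at 0 in CCND2mut 2, CCND2mut 3 and CCND2wt 3, and Hoxa9 was at 0 in CCND2mut 3. Of 12 erythroid markers, 10 fell in CCND2mut against Vec (26.9% of all tested genes). In CCND2wt against Vec, 0 of the 12 were higher and 0 lower (9.71% and 9.05%). In CCND2mut against CCND2wt, 0 were higher and 1 was lower (23.2% and 23.8%). The erythroid list summed to 36.0 to 338 CPM in CCND2mut, 1683 to 1879 CPM in CCND2wt and 954 to 18387 CPM in Vec libraries, with Ermap at 0 in CCND2mut 2. The 9 megakaryocyte markers summed to 36.6 to 92.4 CPM in CCND2mut, 376 to 389.9 CPM in CCND2wt and 386 to 496 CPM in Vec libraries, with Gp1bb at 0 in every library. Against these, 8 monocyte markers summed to 3148 to 4703 CPM in CCND2mut, 71.9 to 84.4 CPM in CCND2wt and 139.9 to 1620 CPM in Vec libraries. The part of such shifts in the lower Runx1, Runx1t1, Cbfa2t2 and Cbfa2t3 levels was not tested. Of the remaining lists, 11 neutrophil markers summed to 5016 to 23774 CPM in CCND2mut, 1196 to 1522 CPM in CCND2wt and 1481 to 15578 CPM in Vec, and 8 mast cell markers to 1551 to 14656 CPM in CCND2mut, 16417 to 17179.8 CPM in CCND2wt and 7187 to 9938 CPM in Vec. The largest part of the mast cell sum was Cpa3, at 3436 ± 3555, 8433 ± 222 and 7703 ± 1187 CPM in CCND2mut, CCND2wt and Vec. Of the 8 mast cell markers, 4 were higher and 0 lower in CCND2mut against Vec (24.9% and 26.9% of all tested genes). In CCND2wt against Vec, 5 were higher and 0 lower (9.71% and 9.05%). In CCND2mut against CCND2wt, 0 were higher and 3 lower (23.2% and 23.8%). The 10 B cell markers summed to 5.44 to 16.1 CPM in CCND2mut, 22.4 to 26.4 CPM in CCND2wt and 52.1 to 352 CPM in Vec. The 7 markers of plasmacytoid dendritic cells, of which 3 were tested, summed to 79.6 to 107 CPM in CCND2mut, 175 to 182 CPM in CCND2wt and 161 to 188 CPM in Vec, so that CCND2mut lay below both other groups. Tcf4, which is also on the list of ETO partners, made up most of that sum, and Siglech, Klk1 and Pacsin1 were at 0 in CCND2mut 1, CCND2mut 2 and CCND2wt 2.

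To compare the genes with one another, levels were divided by gene length and are given as CPM per kilobase. Cbfb stood first in every group, at 40.5 ± 2.92 in CCND2mut, 51.0 ± 1.64 in CCND2wt and 42.4 ± 5.72 CPM per kilobase in Vec, and Cbfa2t2 stood last in every group, at 3.70 ± 0.813, 5.45 ± 0.462 and 5.75 ± 0.560 CPM per kilobase in CCND2mut, CCND2wt and Vec (SD, n = 3 each). The order between them varied. In CCND2mut libraries Cbfb was followed by Runx2 at 22.8 ± 1.58, Runx3 at 12.9 ± 0.228, Runx1 at 11.8 ± 1.40, Runx1t1 at 7.81 ± 1.28 and Cbfa2t3 at 5.10 ± 0.632 CPM per kilobase. Of these neighbours, only the ranges of Runx3 and Runx1 overlapped, and Runx3 was above Runx1 in 3 of 3 libraries. In CCND2wt libraries the order after Cbfb was Runx1 at 16.9 ± 0.226, Runx2 at 15.9 ± 1.10, Runx3 at 12.3 ± 0.933, Cbfa2t3 at 10.7 ± 1.09 and Runx1t1 at 10.4 ± 0.494 CPM per kilobase. Here the ranges of Runx1 and Runx2, of Runx3 and Cbfa2t3, and of Cbfa2t3 and Runx1t1 overlapped. Within libraries, Runx1 was above Runx2 and Runx3 above Cbfa2t3 in 3 of 3, and Cbfa2t3 above Runx1t1 in 2 of 3. In Vec libraries Cbfa2t3 followed Cbfb at 27.0 ± 6.28, before Runx2 at 25.01 ± 7.12, Runx1 at 24.4 ± 6.84, Runx1t1 at 16.4 ± 2.22 and Runx3 at 16.0 ± 3.41 CPM per kilobase. Each of these 5 genes overlapped its neighbours among them, and Runx1 was above Runx1t1 in 3 of 3 libraries, where the other overlapping neighbours kept their order in 2 of 3. Cbfa2t3 thus stood next to last in CCND2mut libraries, between Runx3 and Runx1t1 in CCND2wt libraries, and next to Cbfb at the top in Vec libraries.

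Summed over each family, the RUNX genes were at 47.5 ± 1.97 CPM per kilobase in CCND2mut, 45.1 ± 1.63 in CCND2wt and 65.5 ± 16.7 in Vec, and the ETO family at 16.6 ± 0.469 in CCND2mut, 26.5 ± 1.91 in CCND2wt and 49.1 ± 8.34 in Vec (SD, n = 3 each). Within the RUNX family, Runx1 held 24.8 ± 2.62% of the sum in CCND2mut, 37.6 ± 0.872% in CCND2wt and 37.1 ± 1.56% in Vec. Runx2 held 47.9 ± 2.21% in CCND2mut, 35.2 ± 1.69% in CCND2wt and 38.2 ± 3.07% in Vec, and Runx3 held 27.3 ± 1.14%, 27.2 ± 1.65% and 24.7 ± 2.38% in CCND2mut, CCND2wt and Vec. Runx1 thus took a lower share, and Runx2 a higher share, in all CCND2mut libraries than in any other library. Within the ETO family, Cbfa2t3 held 30.8 ± 4.51% in CCND2mut, 40.1 ± 1.34% in CCND2wt and 54.6 ± 4.17% in Vec. Runx1t1 held 47.0 ± 7.33% in CCND2mut, 39.3 ± 1.14% in CCND2wt and 33.6 ± 3.08% in Vec, and Cbfa2t2 held 22.2 ± 4.67%, 20.5 ± 1.08% and 11.8 ± 1.17% in CCND2mut, CCND2wt and Vec. Of 18 share comparisons, 11 had groups that did not overlap, each with an exact two-sided permutation p of 0.1, the smallest that 3 against 3 libraries allow. Adjusted over the 18 it was 0.164, so none passed 0.05 and none could.

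**Figure D3:**
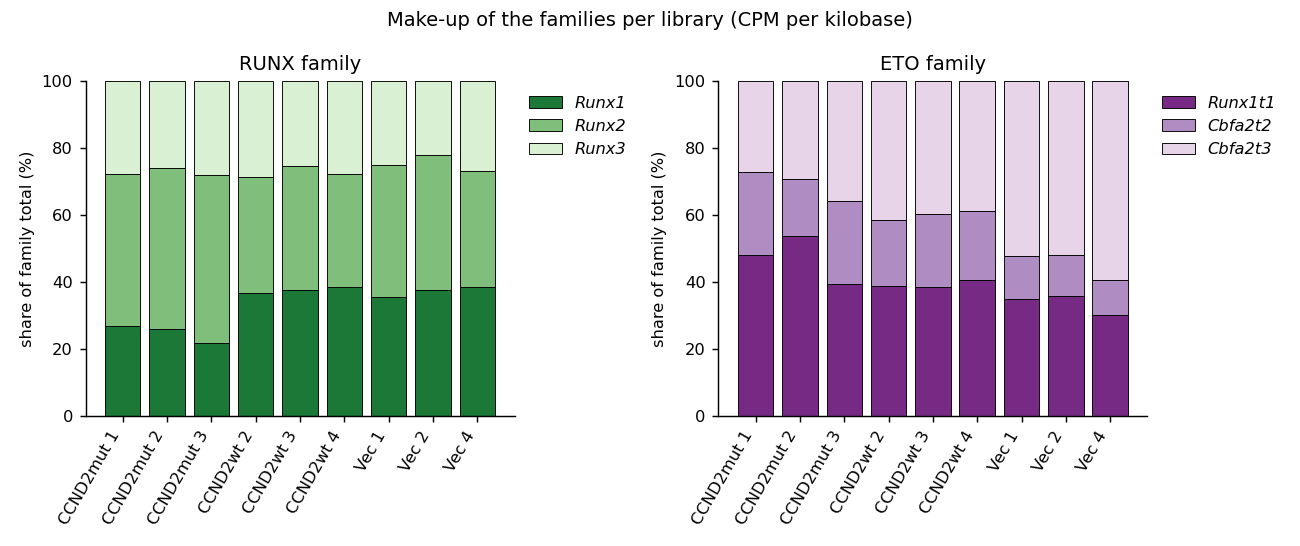
Share of each gene in the length-scaled sum of its family (percent, vertical axis) in each of the 9 libraries, ordered CCND2mut, CCND2wt and Vec, with the RUNX family and the ETO family in separate panels. Runx2 held the largest RUNX share in CCND2mut, with a mean of 47.9%, and Cbfa2t3 held the largest ETO share in Vec, with a mean of 54.6%.

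The balance between the families also differed by library. Per 100 units of summed RUNX level (CPM per kilobase), the ETO family had 37.3, 33.1 and 34.7 units in CCND2mut 1, 2 and 3, 60.1, 60.1 and 56.2 units in CCND2wt 2, 3 and 4, and 82.8, 62.4 and 84.8 units in Vec 1, 2 and 4. The groups did not overlap in any comparison (exact two-sided permutation p = 0.1 in each, the smallest possible, and 0.18 adjusted over 9 ratio comparisons). Cbfb had 94.9, 76.0 and 85.8 units per 100 of the RUNX sum in CCND2mut, 105, 114 and 121 units in CCND2wt and 89.9, 44.4 and 71.6 units in Vec libraries, so that CCND2wt lay above both other groups.

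The fusion can be counted at both Runx1t1 and Runx1, so their ratio was taken in each library. Runx1t1 had 66.9, 68.5 and 62.4 units per 100 units of Runx1 in CCND2mut 1, 2 and 3, 63.6, 61.6 and 59.4 units in CCND2wt 2, 3 and 4, and 81.5, 59.6 and 66.3 units in Vec 1, 2 and 4 (CPM per kilobase for both genes). The groups overlapped in every comparison, with an exact two-sided permutation p of 0.9 for CCND2mut against Vec, 0.3 for CCND2wt against Vec and 0.2 for CCND2mut against CCND2wt. With 3 libraries a group, this does not show that the ratio was the same. How much of either level was fusion transcript cannot be told apart from the normal transcripts in whole-gene counts.

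**Figure D4:**
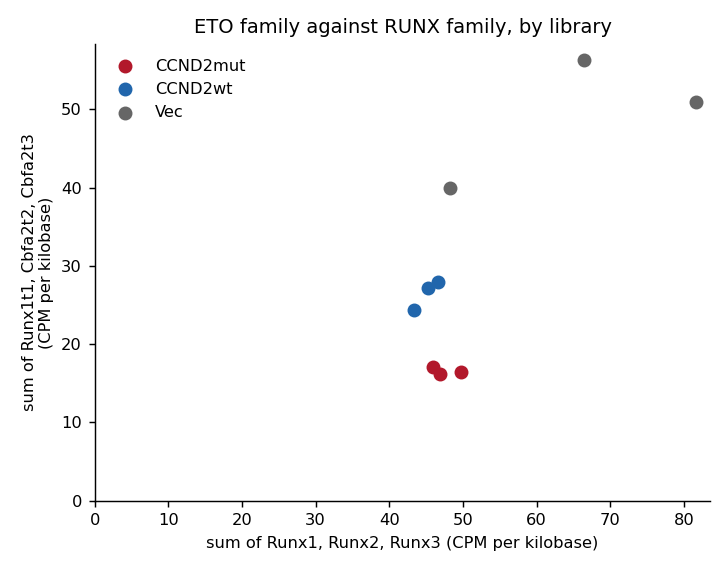
Summed level of the ETO family (vertical axis, CPM per kilobase) against the summed level of the RUNX family (horizontal axis, CPM per kilobase), both from 0, with 1 point per library coloured by group. CCND2mut and CCND2wt libraries lay at like RUNX sums, with means of 47.5 and 45.1, but apart in their ETO sums, with means of 16.6 and 26.5, and the Vec libraries lay above both, with a mean ETO sum of 49.1.

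Genes that work with these 7 were described in 4 lists of 74 genes in all, of which 69 were tested and 4 stood on a pair of lists. Of 18 tested RUNX and CBFB target genes, 5 rose and 7 fell in CCND2mut against Vec (median log2 fold change 0.14), 1 rose and 3 fell in CCND2wt against Vec (-0.74), and 7 were higher and 5 lower in CCND2mut than in CCND2wt (0.14). Over all tested genes, 51.8%, 18.8% and 47.0% passed in these comparisons, and the counts of all 4 lists are to be read against these shares. Hmga2, a chromatin protein gene that RUNX1 represses, was at 9.60 ± 1.70 CPM in CCND2mut and 126 ± 50.4 CPM in Vec libraries (log2 fold change -3.71). Itgal, the alpha chain of the leukocyte integrin LFA-1, rose to 664 ± 171 CPM in CCND2mut, against 286 ± 24.0 CPM in Vec (1.22). Spi1, which encodes the myeloid factor PU.1, was at 39.7 ± 3.29 CPM in CCND2wt and 94.3 ± 31.6 CPM in Vec, a fall by 1.25 on the log2 scale, and was higher in CCND2mut than in CCND2wt (1.89). The list thus moved in both directions. Its count of 4 in CCND2wt against Vec was 0 without CCND2wt 2, 3 or 4, 7 without CCND2mut 1, and 9 with DESeq2. Of its 21 genes, 7 also stood on the marker lists. For all 4 lists, counts under alternative settings have no share of all genes beside them. The number of all tested genes called also changed between settings, as given in the closing section. The 18.8% and 47.0% of the main fit therefore do not apply to those counts.

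Of 13 tested genes reported to respond to AML1-ETO in leukaemia cells, 3 rose and 5 fell in CCND2mut against Vec (median log2 fold change -0.99), 2 rose and 2 fell in CCND2wt against Vec (-0.72), and 2 were higher and 4 lower in CCND2mut than in CCND2wt (-0.25). The counts of 8, 4 and 6 stand beside 51.8%, 18.8% and 47.0% of all tested genes that passed. Plcg1, a phospholipase of receptor signalling, was at 35.1 ± 9.16 CPM in CCND2mut and 292 ± 16.4 CPM in Vec (-3.05), and Angpt1, the ligand of the TIE2 receptor, at 16.1 ± 7.77 CPM in CCND2mut and 437 ± 16.8 CPM in Vec (-4.76). Bcl2, which blocks apoptosis, was at 23.7 ± 0.749 CPM in CCND2mut and 8.11 ± 2.67 CPM in Vec (1.54), and it also rose in CCND2wt, at 18.3 ± 2.65 CPM, against Vec (1.17). Ogg1, a DNA repair enzyme that AML1-ETO is known to repress, was at 34.2 ± 6.61 CPM in CCND2mut and 14.7 ± 1.42 CPM in Vec (1.22). Ccnd2 itself is on this list and was among the genes that fell in CCND2wt against Vec. The count of 4 in that comparison was 2 without CCND2wt 3 or 4, and 7 without CCND2mut 1 or with DESeq2.

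Of 22 protein partners and modifiers of RUNX and CBFB, 5 rose and 9 fell in CCND2mut against Vec (median log2 fold change -0.05), and 3 were higher and 7 lower in CCND2mut than in CCND2wt (-0.04). The count of 14 stands beside 51.8% of all tested genes, and the count of 10 is close to the 47.0% of all tested genes. In CCND2wt against Vec, 0 of 22 passed edgeR's test (median -0.13), with 1 higher and 2 lower at an unadjusted p under 0.05, 2 called by DESeq2 and 0 by limma-voom, and 3 were called without Vec 1 and 1 without CCND2mut 1 or CCND2mut 2. Hipk2, a kinase that phosphorylates RUNX1, was at 211 ± 83.8 CPM in CCND2mut and 24.2 ± 5.58 CPM in Vec (3.13). Cdk6, a cyclin D partner kinase that binds RUNX1, was at 332 ± 98.7 CPM in CCND2mut and 1314 ± 411 CPM in Vec (-1.98). Kmt2a and Fli1 also fell in CCND2mut against Vec, by 1.07 and 1.10 on the log2 scale.

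Of 20 protein partners of the ETO family, 4 rose and 7 fell in CCND2mut against Vec (median log2 fold change -0.14), 1 rose and 2 fell in CCND2wt against Vec (-0.04), and 5 were higher and 7 lower in CCND2mut than in CCND2wt (-0.10). The counts of 11 and 3 are close to the 51.8% and 18.8% of all tested genes that passed, and the count of 12 stands beside 47.0%. Ldb1, the scaffold of the TAL1 complex, was at 204 ± 10.5 CPM in CCND2mut, 446 ± 13.2 CPM in CCND2wt and 627 ± 86.4 CPM in Vec (SD, n = 3 each). It fell in CCND2mut against Vec (-1.62) and in CCND2wt against Vec (-0.49), and CCND2mut lay below CCND2wt (-1.13). Lmo2, the bridging protein of that complex, was at 55.6 ± 31.8 CPM in CCND2mut and 361 ± 75.8 CPM in Vec (-2.70). The E protein genes Tcf4 and Tcf12 were lower in CCND2mut than in CCND2wt (-0.996 and -0.59). Prkar2a, a regulatory subunit of protein kinase A, was at 64.9 ± 5.45 CPM in CCND2mut, 48.4 ± 1.76 CPM in CCND2wt and 27.2 ± 2.42 CPM in Vec, and rose in both against Vec (1.25 and 0.83). The count of 3 in CCND2wt against Vec was 1 without CCND2wt 2 or 4, and 5 with DESeq2. With the CCND2wt libraries summed to 1 sample, 0 genes of each of the 4 lists were called in CCND2wt against Vec by edgeR, and in CCND2mut against CCND2wt the counts were 6 RUNX and CBFB targets, 3 AML1-ETO responsive genes, 3 RUNX and CBFB partners and 2 ETO partners.

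**Figure D5:**
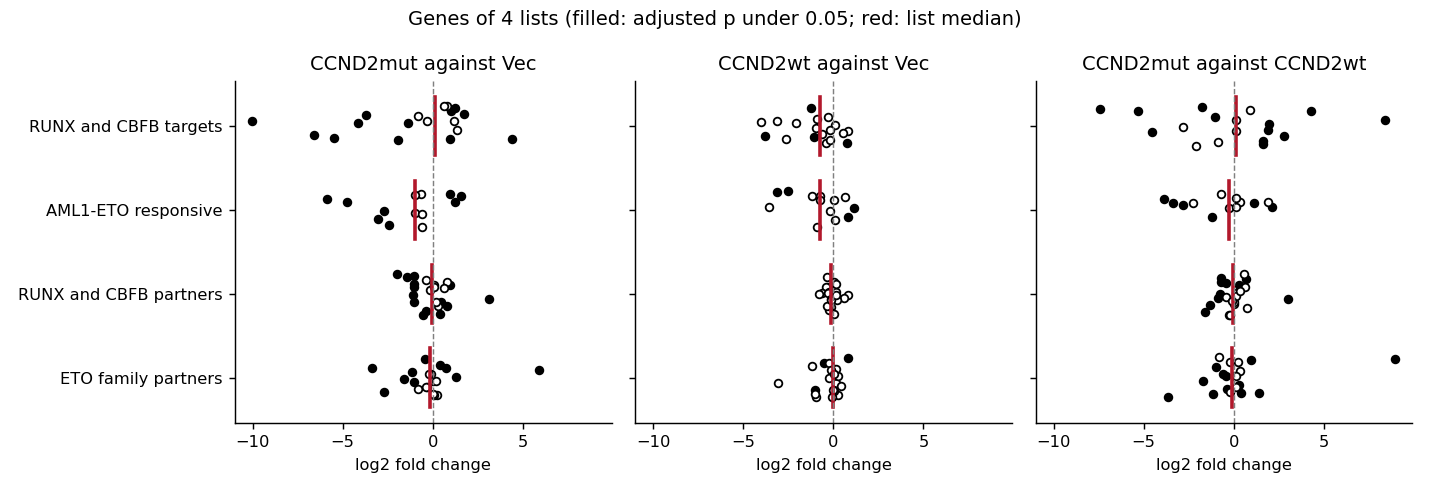
Log2 fold change (horizontal axis) of every tested gene of the 4 pathway lists (down the page), 1 point per gene and 1 panel per comparison; filled points passed the adjusted p threshold of 0.05, and a red line marks each list's median. Genes of each list lay on both sides of 0 in CCND2mut against Vec, and the fitted fold of Rag1, which had 0 counts in CCND2mut libraries, is not a bound.

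For each of the 7 genes, the protein-coding genes with the most similar profile over the 9 libraries were found by the root mean square difference of centred log2(CPM + 1) values, among 10242 genes averaging at least 5 CPM. For Runx1 these were Crebbp at 0.109, Pan3 at 0.122 and Bcr at 0.123, where the median over all candidates was 0.647. Crebbp, a histone acetyltransferase on the RUNX partner list, was at 75.1 ± 14.8 CPM in CCND2mut, 101 ± 8.48 CPM in CCND2wt and 154 ± 39.4 CPM in Vec. For Runx2 they were Ube2d3 at 0.0836, Rsl1d1 at 0.0973 and Nab2 at 0.108 (median 0.533), and for Runx3 Glis2 at 0.0932, Qtrt1 at 0.0958 and Noc2l at 0.1003 (median 0.470). For Cbfb they were Spin1 at 0.0586, Odr4 at 0.0692 and Nprl2 at 0.0702 (median 0.442). For Runx1t1 they were Tap2 at 0.0684, Mark4 at 0.0863 and Fuz at 0.101 (median 0.642), and for Cbfa2t2 Socs7 at 0.0897, Gnb1l at 0.0965 and Shld2 at 0.0987 (median 0.546). For Cbfa2t3, whose profile varied most of the 7, they were Izumo4 at 0.182, Ccdc9b at 0.234 and Dcun1d1 at 0.255, where the median was 1.09. None of the 7 genes was among the nearest of another. The 9 libraries are shared by all these profiles, so the measure describes likeness in these libraries only.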

How the data were processed

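RNA of bone marrow cells was sequenced in 9 libraries, 3 in each of 3 groups. The authors deposited raw read counts per gene, whole numbers that were not normalised, with the gene length. Per the submitters' processing notes, the tools were CASAVA 1.8, fastp, HISAT2 2.0.5, featureCounts 1.5.0-p3 and DESeq2 1.20.0, with the build mm10. Of the gene annotation release, the strand setting and the treatment of reads from the fusion or the vector, none was given in the sources used here. Libraries held 15043755 to 17593634 counts, and 0 count columns lacked a group. For Runx1 in CCND2wt the coefficient of variation was 1.33%, where counting error alone gives 1.64%. Every other gene of the 7 was above counting error in CCND2wt, from 3.22% for Cbfb (counting error 1.76%) to 10.2% for Cbfa2t3 (2.49%). For Runx3 in CCND2mut it was 1.76%, where counting error gives 3.16%.

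Genes were filtered with filterByExpr, which kept 15660 of 54532. They were scaled with TMM and tested with the quasi-likelihood test of edgeR 4.0.16 (robust, R 4.3.3) with all 3 groups in 1 model and Benjamini-Hochberg adjustment over all tested genes at a threshold of 0.05. SEs and 95% intervals were derived from the fold change and its F statistic. Shares and ratios used CPM per kilobase and exact two-sided permutation tests. The code was tested on simulated data. Alternatives were DESeq2 1.42.0, limma 3.58.1 (voom), RLE scaling, other filters, a replicate block, fits of only 2 groups, globin, immunoglobulin and mitochondrial genes left out, libraries left out, the CCND2wt libraries summed, and a 2-fold threshold. The genes and lists were chosen with earlier results of these data known. Genes named are the 7 genes, up to 3 rising and 3 falling genes of a list by adjusted p where they fitted the text, the 3 nearest profiles, overlapping genes, Ccnd2 and Ptprc. Kmt2a, Fli1, Spi1, Tcf4, Bcl2, Ogg1 and Prkar2a were taken by that rule. Marker genes, Rag1 and the sex-linked genes were chosen after their values were seen. The counts of list genes under the alternatives were also added after the data were seen. A result for 1 further list gene is not reported here.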

Additional observations from a re-analysis of the deposited data

How the results depend on the processing

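Over 420 values of the 7 genes under 20 alternative settings, 351 kept direction and side of the threshold, 54 lost the call, 13 gained one and 2 reversed: the log2 fold change of Runx2 in CCND2mut against Vec was 0.11 without Vec 2 (-0.30 to 0.11 with 1 library left out), and that of Cbfb was 0.024 without Vec 4 (-0.17 to 0.024), neither called. The 4 calls in CCND2mut against Vec held in every setting except Cbfa2t2 at the 2-fold threshold. Of the 7 genes, CCND2wt against Vec called 3, and 1 to 5 with 1 library left out, 5 with Vec 1 and CCND2mut 1 both left out, 0 with the CCND2wt libraries summed and 1 at 2-fold. CCND2mut against CCND2wt called 5, and 1 to 6 with 1 library left out, 1 summed and 1 at 2-fold. Over all genes, CCND2mut against Vec called 8119, and 5145 at 2-fold; CCND2wt against Vec called 2938, and 1112 to 3799 with 1 library left out, 42 summed and 1844 at 2-fold; CCND2mut against CCND2wt called 7360, and 2680 summed and 4617 at 2-fold. RLE in place of TMM moved the median log2 fold change of all genes by -0.0104 in CCND2mut against Vec, 0.00407 in CCND2wt against Vec and -0.0144 in CCND2mut against CCND2wt.

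With the replicate number as a block, CCND2mut against Vec called 4 of the 7 genes and 6751 of all, CCND2wt against Vec 2 and 1636, and CCND2mut against CCND2wt 2 and 6045. By edgeR, Runx1t1 in CCND2wt against Vec (adjusted p = 0.0664) and Cbfb, Runx1t1 and Cbfa2t2 in CCND2mut against CCND2wt (0.0919, 0.101 and 0.0744) did not pass with the block. Deviations from the group means of same-numbered libraries correlated at -0.113 to 0.204 over 6 pairs, and of others at -0.280 to 0.345 over 21. The 2 ranges overlapped. Pairs that share a library are not independent, so these values do not show whether the numbers pair the libraries. Of the 18 family shares, 11 did not overlap between groups, and 12 with gene length left out. Depth was alike in all libraries, and the median biological coefficient of variation over genes was 0.246. In CCND2wt libraries Runx1 varied by no more than counting error, while every other gene of the 7 varied by more than that. How much of the spread between libraries is between animals was not tested.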
